A study of Peromyscus maniculatus with 10 samples.

Results

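The 100 most abundant autosomal genes of primary deer mouse fibroblasts were described across 10 animals. They were chosen by level: raw counts were divided by each library's total and multiplied by 1000000 (CPM, counts scaled to a fixed library total), the 10 values of a gene were averaged, and the 100 genes of highest mean on numbered chromosomes were kept, of 25394 genes in the table. The series was made to analyse coordination of expression in outbred Peromyscus maniculatus, the North American deer mouse, within a study of the unfolded protein response and weight gain. Each library came from the ear fibroblasts of 1 male of the BW stock, a captive closed colony, at 3 weeks of age, grown in RPMI medium after collagenase digestion, and the labels name no genotype, agent or second condition. The 10 animals therefore formed a single group, and the labels distinguish them only by animal number, 7 between 36746 and 36798 and 3 between 36905 and 36907. A culture of this kind is defined by how it was grown and can hold other cells of the ear, and in bulk RNA fewer cells of a type and less RNA per cell cannot be told apart. The files identify genes by Ensembl identifier and position on the HU_Pman_2.1 build, and no symbol could be matched to them, so genes are given by identifier and the cell type was not checked against marker genes.

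Fibroblasts build and remodel connective tissue. They secrete collagens and other matrix proteins, attach to that matrix through actin-based contacts, and in culture devote much of their messenger RNA to matrix, cytoskeleton, protein synthesis and energy metabolism. Fibrillar collagens form a rod-shaped triple helix with glycine at regular intervals along each chain. In vertebrates their helix is known to be encoded by many short exons, commonly of 54 bases or of other multiples of 9 bases, each holding whole glycine-led triplets. That exon pattern can be read from annotation without a gene's name, and it is used below to describe a group of members without naming them.

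Sequencing depth was 20811334 to 31912526 counts per animal. The members held 24.3% ± 1.5 (SD, n = 10) of all counts, from 21.0% in animal 36789 to 26.4% in animal 36764. The 10 most abundant genes alone held 8.83% ± 1.03, ranks 11 to 25 held 4.62% ± 0.682, ranks 26 to 50 held 4.94% ± 0.455 and ranks 51 to 100 held 5.88% ± 0.272 (SD, n = 10). Relative to its mean, the share of ranks 11 to 25 differed most between animals (14.8%), followed by that of the first 10 (11.6%), and that of the last 50 differed least (4.63%). Only 21 genes made up 50% of the members' own counts. The lowest count of any member in any animal was 1237, at which counting error alone is 2.84%, below the lowest coefficient of variation between animals given below (3.46%).

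Mean levels ran from 12848 CPM at rank 1 to 866 CPM at rank 100, a 14.8-fold range with a median of 1652 CPM. Mean CPM exceeded 10000 in 5 members and 1000 in 86. The most abundant gene was ENSPEMG00000024212 (chromosome 8, 80144225 to 80159570, plus strand), with 4098 CPM in its lowest animal (36789), a median of 12808 and 19512 CPM in its highest (36907). At rank 2, ENSPEMG00000011603 (chromosome 3, 6446148 to 6481216, plus strand) ran from 7778 CPM in 36789 through a median of 11570 to 21785 CPM in 36764. ENSPEMG00000003191 (chromosome 4, 91644413 to 91657395) followed with 7461 CPM in 36746, a median of 11206 and 16167 CPM in 36764. These leading genes were not ordered alike in the animals. The gene of rank 1 was the most abundant member in 4 animals, and the genes of ranks 2, 3 and 4 were each first in 2 animals.

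At rank 4, ENSPEMG00000012261 (chromosome 5, 72033863 to 72041724, minus strand) lay between 8046 CPM in 36907 and 14945 CPM in 36764, with a median of 11622. ENSPEMG00000018184 (chromosome 13, 40311044 to 40380425) lay between 7453 CPM in 36789 and 13173 CPM in 36764, with a median of 10326. ENSPEMG00000024174 (chromosome 7, 83521189 to 83523103) ran over a narrower span, at 7825 CPM in 36764, a median of 9276 and 10387 CPM in 36798. Means of neighbouring ranks 1 to 5 lay well within the standard deviation between animals, which was 1865 to 4514 CPM for these genes. The step from rank 6 (9139 ± 828 CPM) to rank 7 (6586 ± 1275 CPM; SD, n = 10) was wider than either standard deviation.

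ENSPEMG00000017564 (chromosome 1, 142207416 to 142209604) held rank 7, with 5351 CPM in 36907, a median of 6273 and 9730 CPM in 36789. Of the first 10 genes it alone stood highest in animal 36789. ENSPEMG00000019570 (chromosome 7, 35308783 to 35311998) ran from 4568 CPM in 36772 to 6078 CPM in 36764 around a median of 4939. ENSPEMG00000022374 (chromosome 8, 38969446 to 38995504) ran from 2723 CPM in 36789 to 6555 CPM in 36798 around a median of 4660. The last of the first 10, ENSPEMG00000014210 (chromosome 8, 84362753 to 84372275), ran from 2978 CPM in 36905 to 4559 CPM in 36764 around a median of 4080.

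**Figure D1:**
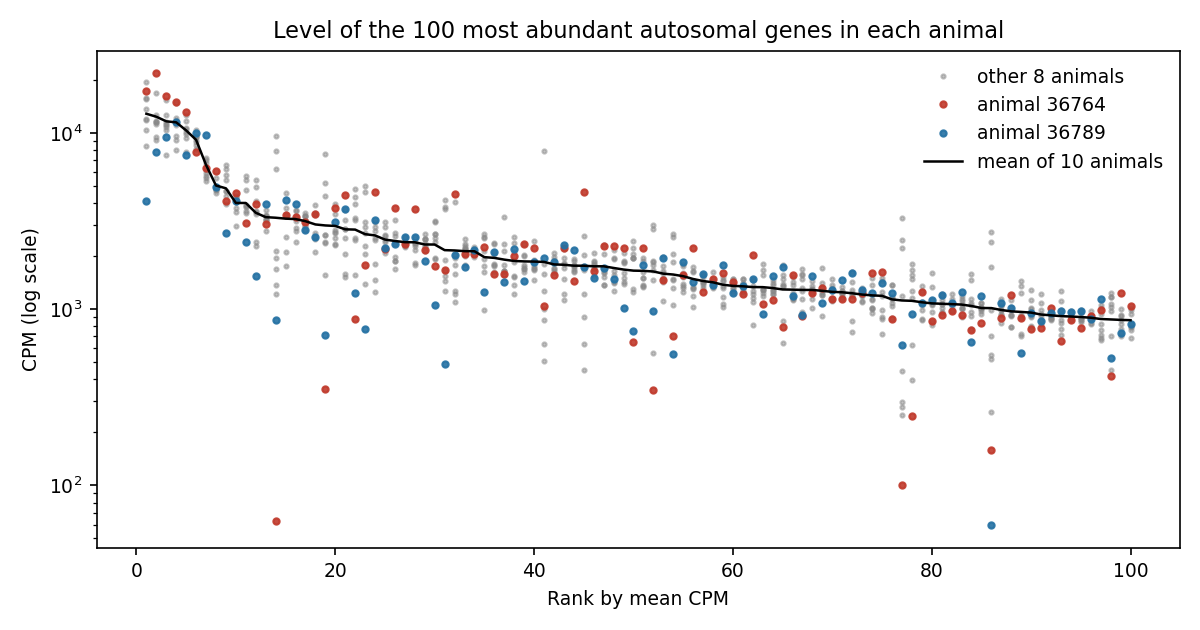
CPM (vertical log axis) of each of the 100 members against its rank by mean CPM (horizontal axis). Grey points are 8 animals, red and blue points are animals 36764 and 36789, and the black line is the mean of 10 animals. Levels fall steeply from 12848 CPM at rank 1 and flatten toward 866 CPM at rank 100, and 2 members, those of ranks 14 and 86, reach down to under 100 CPM in 1 of the coloured animals.

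The border of the ranking fell among near-equal values. Rank 100, ENSPEMG00000016525 (chromosome 12, 20294242 to 20411462), had a mean of 866.03 CPM, and rank 101, ENSPEMG00000007818 (chromosome 2, 9378966 to 9381996), had 866.01 CPM. Just inside it, ENSPEMG00000009100, ENSPEMG00000026701, ENSPEMG00000020869 and ENSPEMG00000018968 had means of 894, 880, 875 and 870 CPM. Just outside, ENSPEMG00000010999, ENSPEMG00000009034, ENSPEMG00000020062 and ENSPEMG00000022004 had means of 863, 855, 855 and 851 CPM. Inside each animal's own ranking, 62 members were among the first 100 in all 10 animals and 38 were not. Another 57 genes reached the first 100 of at least 1 animal, of which 2 did so in at least 5 animals. The chromosome rule left out 4 genes on the X chromosome whose mean level was that of a member.

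Counts favour long transcripts, and dividing by coding length changed which members led. The annotation is largely of coding sequence, since the exon length was a multiple of 3 for 93 of 100 members and for 91.8% of the 13935 genes averaging at least 10 counts. Per kilobase (kb) of coding length, members spanned a 131.5-fold range with a median of 921 CPM per kb. The level per kb was highest for ENSPEMG00000017564, at 11996 ± 2322 CPM per kb over 4 exons, followed by ENSPEMG00000012261 (8198 ± 1588), ENSPEMG00000024174 (6580 ± 596), ENSPEMG00000018263 (5912 ± 1594) and ENSPEMG00000014210 (5236 ± 610; SD, n = 10). The first 2 genes by count, with coding lengths of 4362 and 4110 bases, had 2945 ± 1035 and 3007 ± 996 CPM per kb. When all autosomal genes were ranked per kb, 47 of the members were among the first 100.

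The members' gene models differed from those of other expressed genes. Members had a median of 12 exons and 1926 coding bases in 14519 bases of genome. Genes averaging at least 10 counts had medians of 8 exons and 1338 coding bases in 16152 bases of genome. For the 5421 genes averaging at least 1000 counts these were 11 exons, 1608 coding bases and 21586 bases of genome. Exons covered 15.1% of a member's span at the median, against 8.38% and 7.54% in those sets. No member had a single exon, against 7.03% of genes averaging at least 10 counts and 2.84% of those with at least 1000. At the other end, 19 members had at least 40 exons, against 1.93% and 3.08%. The exon number was highest in ENSPEMG00000015057 (97 exons, chromosome 2, 152270145 to 152370569), ENSPEMG00000015988 (88 exons, chromosome 18, 44653348 to 44736338) and ENSPEMG00000017917 (67 exons, chromosome 6, 89199760 to 89392631), and lowest in ENSPEMG00000018979 (2 exons, 234 coding bases). These figures are descriptions, because a long coding sequence raises a count and so bears on who became a member.

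Exons of exactly 54 bases, the unit of fibrillar collagen helices described above, were concentrated in 7 members. Each had 21 to 31 such exons among 51 to 67 in all, and the member with the next highest number had 4. At least 5 such exons were found in 15 of the 13935 genes averaging at least 10 counts (0.108%), 7 of them members. The 7 were ENSPEMG00000024212 (rank 1), ENSPEMG00000011603 (rank 2), ENSPEMG00000012994 (rank 14; chromosome 20, 64270868 to 64299899), ENSPEMG00000017917 (rank 19), ENSPEMG00000016978 (rank 23; chromosome 13, 64010559 to 64046419), ENSPEMG00000012578 (rank 30; chromosome 13, 63854907 to 63982778) and ENSPEMG00000000663 (rank 49; chromosome 4, 11687033 to 11841048). The exon criterion was chosen after the members had been seen, so no test was made. The other 8 genes that met it had mean levels of 10.8 to 298 CPM, below the 1678 CPM of the least abundant of the 7.

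Most of the exons of the 7 genes were multiples of 9 bases, 323 of 395 in all, and 72 of the 218 that were not of 54 bases were no such multiple. Of the 395 exons, 177 were of 54 bases, 58 of 108, 38 of 45, 25 of 99 and 5 of 162, all multiples of 9. Among the 1677 exons of the other 93 members, these lengths occurred 21, 12, 17, 17 and 17 times. In ENSPEMG00000011603, 43 of 52 exons had 1 of these 5 lengths, and in ENSPEMG00000024212 41 of 51 did. ENSPEMG00000017917 and ENSPEMG00000000663 had no exon of 99 or 162 bases and more of 45 and 54 bases, and the other 5 had 5 exons of 99 bases and 1 of 162 bases each.

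**Figure D2:**
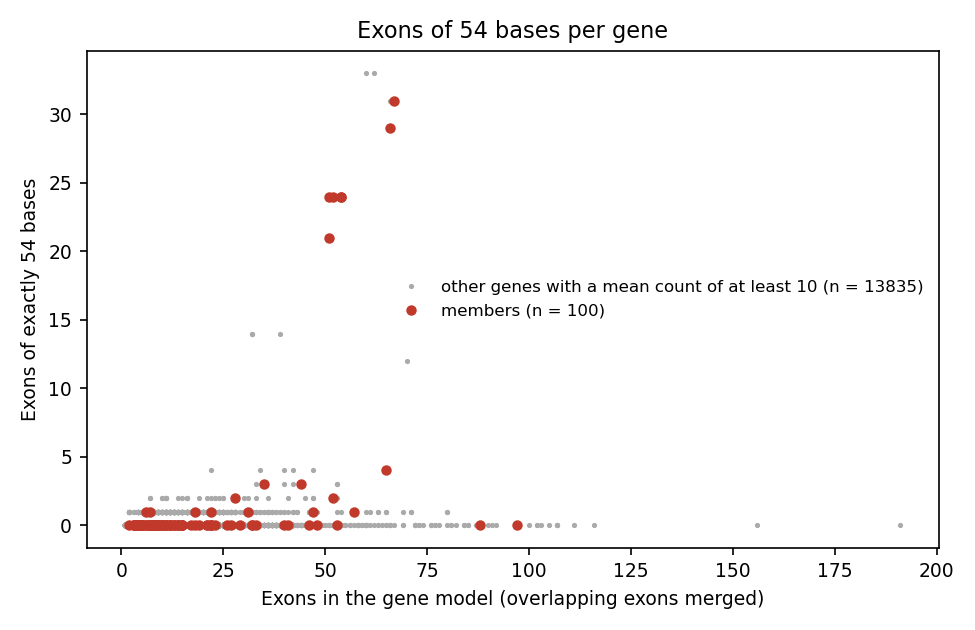
Number of exons of exactly 54 bases (vertical axis) against the number of exons in the gene model (horizontal axis), for the 100 members in red and 13835 other genes averaging at least 10 counts in grey. The 7 members with 21 to 31 such exons stand clear of all other members, which have at most 4.

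The order of exon lengths divided the 7 genes into sets. Read in the direction of transcription, ENSPEMG00000012578 shared an unbroken run of 43 exons of identical length with ENSPEMG00000016978 and another of 43 with ENSPEMG00000012994. ENSPEMG00000011603 shared runs of 41 to 42 exons with these genes. ENSPEMG00000024212 shared 25 to 26 consecutive exons with each of those 4, while ENSPEMG00000017917 and ENSPEMG00000000663 shared 34 with each other and 9 with each of the other 5. By exon lengths alone the group thus held 4 genes of nearly the same architecture, 1 gene that matched them over part of its length, and a separate pair.

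Shared runs also linked other members. ENSPEMG00000007795 and ENSPEMG00000010563, each of 22 exons, had 18 consecutive exons of the same lengths, and ENSPEMG00000003191 (rank 3, 22 exons) and ENSPEMG00000006363 (rank 65, 21 exons) had 14. ENSPEMG00000011883, ENSPEMG00000023614 and ENSPEMG00000023168, of 35, 28 and 44 exons, shared runs of 8 to 9. ENSPEMG00000017305 and ENSPEMG00000020869 shared 7. In all, 16 members shared a run of at least 7 exons with another member. With any gene averaging at least 10 counts as the partner, 30 of the 79 members with at least 7 exons did so (38.0%), against 14.7% of the 8438 such genes in all. A gene of many exons offers more places for such a run, and members more often had many exons. Whether the share of members differs from that of genes of like exon number was not tested.

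Near-identical sequence, where genes have it, can blur counts. ENSPEMG00000029758 (rank 90) and ENSPEMG00000025359 (rank 91), adjacent on the annotation at a distance of 102350 bases, both had 4 exons, of 3, 223 and 149 bases and then of 981 in the former and 975 in the latter. Their means were 956 ± 159 and 933 ± 132 CPM (SD, n = 10). Only reads mapping to 1 place were counted, so reads from any stretch that these genes share may have been lost, and the levels of both are uncertain. Sequence identity was not examined here.

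The 7 genes with 54-base exons held 3.82% ± 1.19 (SD, n = 10) of all counts, which was 15.7% of the members' counts. The share was 1.63% in 36789, 2.82% in 36905, 2.91% in 36787, 3.48% in 36906, 3.73% in 36772, 3.74% in 36746, 4.52% in 36764, 4.54% in 36797, 5.35% in 36907 and 5.45% in 36798. Animal 36789, the library of lowest depth, was thus lowest, with 5 of the 7 genes at their lowest level there and the other 2 at their second lowest.

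Within the group, the genes varied unequally. ENSPEMG00000012994 was at 62.7 CPM in 36764, 874 in 36789, 1220 in 36746, 1365 in 36905, 1701 in 36772, 1963 in 36787, 2131 in 36906, 6244 in 36797, 7897 in 36907 and 9572 CPM in 36798. Its highest value was 152.6 times its lowest, and no animal lay between 2131 and 6244 CPM. ENSPEMG00000017917 had the same 3 animals at the top, with 4414 CPM in 36797, 5221 in 36907 and 7555 in 36798, against 354 CPM in 36764 and 710 in 36789. ENSPEMG00000016978 was again highest in 36798 (5009 CPM) and 36907 (4608 CPM) and lowest in 36789 (774 CPM).

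The other 4 genes of the group ranged less. ENSPEMG00000012578 lay between 1059 CPM in 36789 and 3155 CPM in 36798. The next lowest value, 1756 CPM in 36764, left a gap that set 36789 apart. ENSPEMG00000000663 lay between 1014 CPM in 36789 and 2210 CPM in 36764. In animal 36764, where ENSPEMG00000012994 and ENSPEMG00000017917 were at their lowest, ENSPEMG00000011603 and ENSPEMG00000000663 were at their highest. Coefficients of variation between animals (CV, the SD as a percentage of the mean, on CPM scaled by the trimmed mean of M-values, TMM) were 102% for ENSPEMG00000012994, 75.0% for ENSPEMG00000017917, 51.2% for ENSPEMG00000016978, 37.0% and 36.9% for the genes of ranks 1 and 2, 28.7% for ENSPEMG00000012578 and 23.9% for ENSPEMG00000000663.

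**Figure D3:**
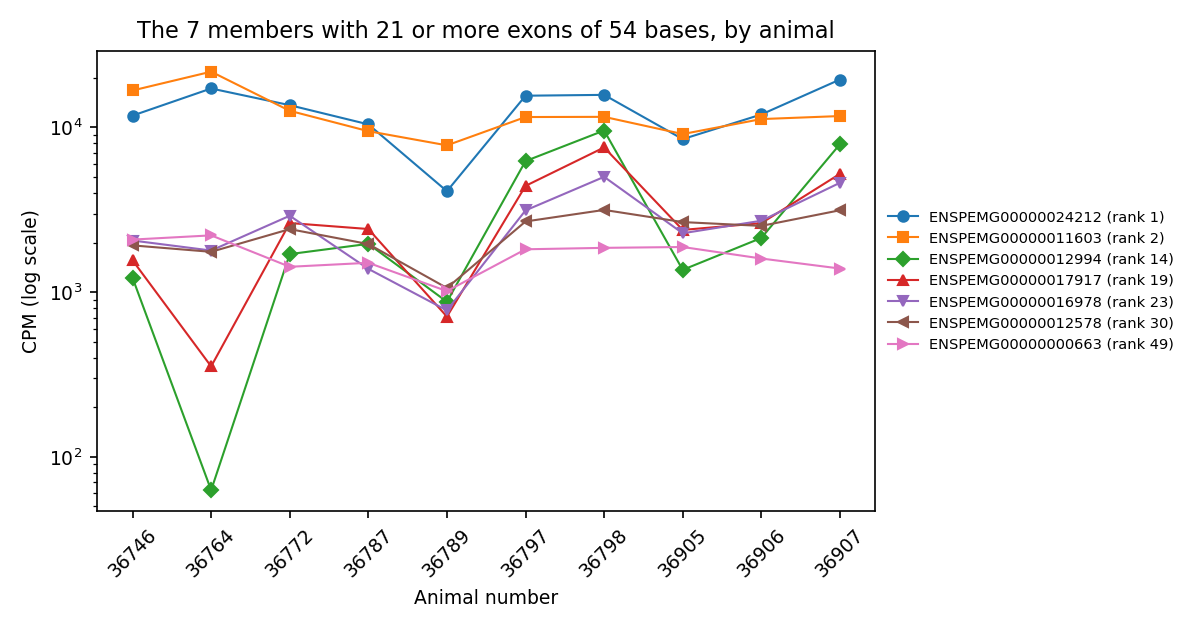
CPM (vertical log axis) of the 7 members with 21 or more exons of 54 bases in each of 10 animals (horizontal axis, by animal number). The lines only join the points of a gene, as animals have no order. Levels of the genes of ranks 14 and 19 drop to 62.7 and 354 CPM in 36764, where those of ranks 2 and 49 are at their highest.

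Across all 100 members the median CV was 20.4%, with the middle 50% of members between 11.3% and 28.9%. It was 16.1% for genes averaging at least 10 counts and 10.5% for those averaging 1000 counts or more. Only 24 members had a CV under 10%, against 47.0% of the genes averaging at least 1000 counts and 28.2% of those averaging at least 10. A CV over 50% was found in 10 members, against 4.50% and 13.1% of these sets. Without animals 36764 and 36789 the median CV was 16.3% for members. It was then 13.6% for genes averaging at least 10 counts and 8.94% for those averaging at least 1000. Between the lowest and the highest animal, 39 members differed at least 2-fold and 6 at least 10-fold. With counts under 3 set to 3, these shares were 19.8% and 2.32% of genes averaging at least 1000 counts and 39.6% and 7.45% of those averaging at least 10. These spreads come from the values that ranked the genes and are given as descriptions.

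Some members were nearly constant. ENSPEMG00000014969 (chromosome 1, 101806192 to 101815058) had the lowest CV, 3.46%, and lay between 1967 CPM in 36907 and 2242 CPM in 36746. ENSPEMG00000027253 (CV 4.38%, chromosome 12, 56112907 to 56115081) lay between 866 and 981 CPM, and ENSPEMG00000020801 (CV 5.03%, chromosome 21, 60004529 to 60009203) between 2249 and 2568 CPM. ENSPEMG00000007856 (CV 5.68%) and ENSPEMG00000013983 (CV 5.76%) completed the 5 steadiest, at 1105 to 1315 and 1223 to 1488 CPM.

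At the other extreme, ENSPEMG00000009651 (chromosome 10, 94755504 to 94761044) had a CV of 118%. It reached 7875 CPM in animal 36746, whereas the other 9 animals lay between 507 CPM in 36906 and 1961 CPM in 36789. ENSPEMG00000012234 (CV 103%, chromosome 2, 83098349 to 83163247) was at 3309 CPM in 36907, 2479 in 36798, 2229 in 36797 and 1181 in 36772, and between 100.3 CPM (36764) and 629 CPM (36789) in the other 6. ENSPEMG00000011633 (CV 95.5%, chromosome 7, 6355945 to 6365561) was highest in the same animals, 36907 (2745 CPM), 36798 (2408 CPM) and 36797 (1743 CPM), and lowest in 36789 (59.4 CPM) and 36764 (158 CPM). In animal 36789 its rank among autosomal genes was 3684, the poorest of any member. The medians of ENSPEMG00000012234 and ENSPEMG00000011633, 539 and 624 CPM, lay under the 866 CPM mean of rank 100. Each was among the first 100 in 4 animals. High values in a few animals thus bore on both their membership and their CV. When genes were ranked by the median over animals, 96 of the 100 members remained. The remaining 2 of the 5 most variable members were ENSPEMG00000012994 and ENSPEMG00000017917 of the 54-base group.

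**Figure D4:**
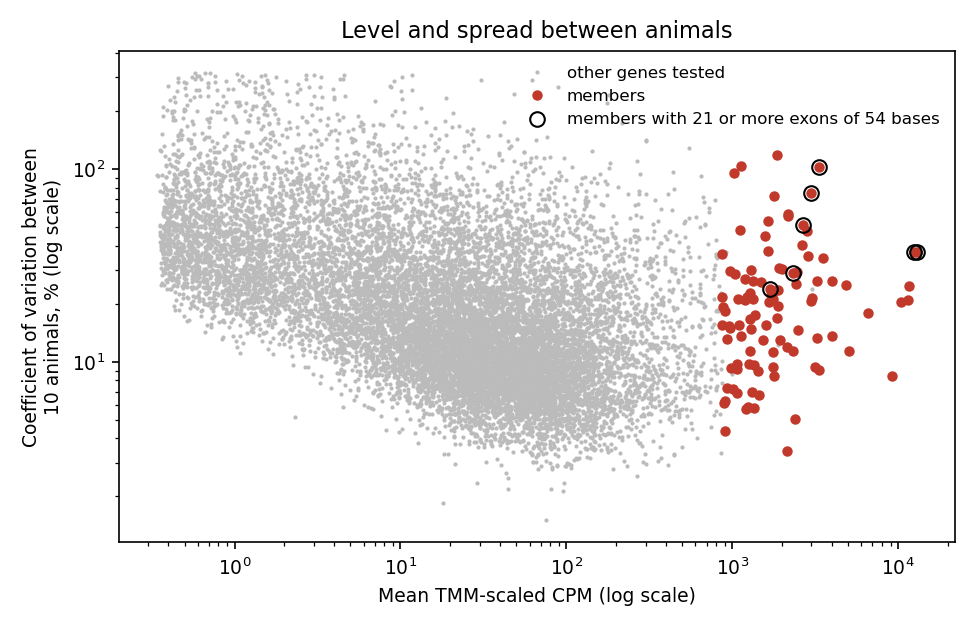
CV between 10 animals (vertical log axis, %) against mean TMM-scaled CPM (horizontal log axis) for genes averaging at least 10 counts (grey), the 100 members (red) and the 7 members with 21 or more exons of 54 bases (black rings). Members spread from 3.46% to 118%, and the ringed genes lie at 23.9% and above.

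Animals 36764 and 36789 stood apart over all genes, as the extreme animal in 651 and 441 of the 1355 genes marked by the Dixon test below. Of the 100 members, 33 had their highest TMM-scaled level in 36764 and 11 their lowest, against 19.0% and 21.0% of genes averaging at least 10 counts. In 36789, 8 members were highest and 25 lowest, against 17.2% and 15.9%. Animal 36798 had 20 members highest, against 14.1% of genes, and 36907 had 18 lowest, against 11.3%. Animal 36905 had 14 highest and 14 lowest, against 7.02% and 8.42%. A Dixon test of the gap between an extreme animal and its neighbour, on log2 TMM-scaled CPM at its 95% critical value for 10 samples, marked 9 members, 5 at the high and 4 at the low end. That is close to the 9.72% of the 13935 genes marked by the same rule. The extreme animal was 36764 for 5 of the members, 36789 for 3 and 36746 for 1. On log2 CPM without TMM scaling 5 members were marked, against 11.04% of genes, and without animals 36764 and 36789 3 were, against 5.04% of genes.

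Among the marked members, ENSPEMG00000010982 (chromosome 20, 43517251 to 43571427) had the largest ratio of gap to range, 0.586. It was at 3722 CPM in 36764, and the other 9 animals lay between 1771 and 2553 CPM. For ENSPEMG00000012578 (0.535), the gap lay below, under the values of all animals but 36789. ENSPEMG00000019570 (0.532) was set apart by 6078 CPM in 36764 above 5518 CPM in 36787. ENSPEMG00000009651 (0.521) was set apart by animal 36746, and ENSPEMG00000012994 (0.506) by its 62.7 CPM in 36764.

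**Figure D5:**
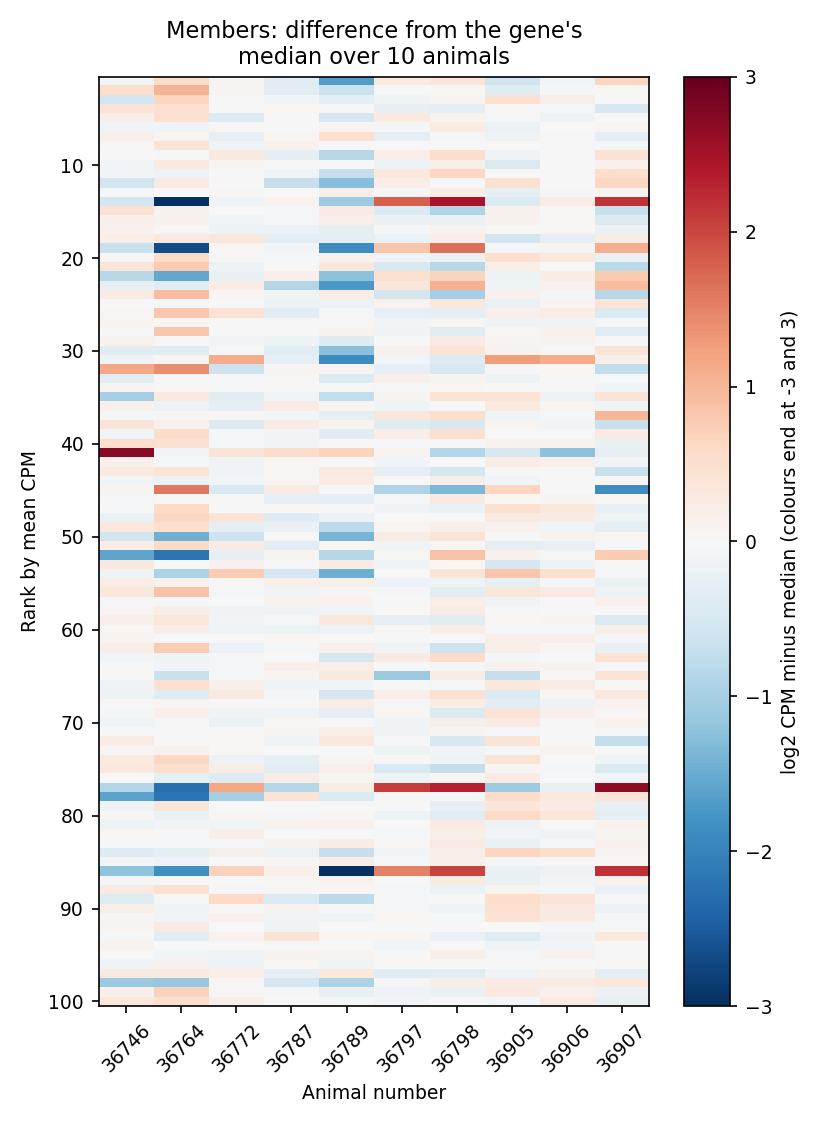
Difference of log2 TMM-scaled CPM from the gene's median over 10 animals (colour, ending at −3 and 3) for each member (vertical axis, by rank of mean CPM) in each animal (horizontal axis). Most members are pale throughout, while those of ranks 14, 19, 77 and 86 are blue in 36764 and red in 36797, 36798 and 36907.

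The levels of 2 genes can follow each other from animal to animal. Pearson's R of log2 TMM-scaled CPM across the 10 animals was taken over the 4950 pairs of members. Its median was 0.04 (−0.00305 without TMM scaling), and 47.6% of pairs were negative (50.3% without TMM scaling). R was at least 0.9 in 1.56% of member pairs, against 0.503% of all pairs of genes averaging at least 1000 counts, and at most −0.9 in 0.525%, against 0.419%. Coordination in the sense of the study is the correlation between the R values that a pair of genes has with the other genes. Over genes averaging at least 10 counts it had a median of 0.03 in member pairs and was negative in 48.7%. It was at least 0.9 in 4.87% of member pairs, against 3.17% of all pairs of genes averaging at least 1000 counts and 2.40% of those averaging at least 10. At the negative end it was at most −0.9 in 3.09%, against 2.93% and 2.34%. All pairs share the same 10 libraries, and these values are descriptions with no p.

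The closest pair was ENSPEMG00000022342 and ENSPEMG00000006459, on chromosomes 1 and 8 (R = 0.99, Spearman's rho = 0.96, n = 10). Both were lowest in 36789, at 2413 and 933 CPM, and highest in 36798, at 5690 and 1804 CPM. ENSPEMG00000012952 and ENSPEMG00000014871 followed (R = 0.99, rho = 0.95), at 2306 and 1370 CPM in 36798 and 3943 and 2300 CPM in 36905. ENSPEMG00000022374 and ENSPEMG00000016978 came next (R = 0.98, rho = 0.93). Without animals 36764 and 36789 these R values were 0.99, 0.99 and 0.95.

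Strongly negative pairs were fewer than strongly positive ones. ENSPEMG00000015527 and ENSPEMG00000012234 had R = −0.97 (rho = −0.98, n = 10), the former at 4608 CPM in 36764 and 455 CPM in 36907, where the latter was at 100.3 and 3309 CPM. ENSPEMG00000012994 opposed ENSPEMG00000010982 (R = −0.96, rho = −0.78) and ENSPEMG00000026154 (R = −0.96, rho = −0.98). ENSPEMG00000026154 was at 4645 CPM in 36764 and 1258 CPM in 36798, the animals where ENSPEMG00000012994 was lowest and highest. Without animals 36764 and 36789 the 3 values were −0.96, −0.88 and −0.99. ENSPEMG00000012234 had R of at most −0.8 with 16 other members and at least 0.8 with 1, and ENSPEMG00000012994 had 13 and 5.

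The 54-base group did not move as 1 block. Its 21 pairs had a median R of 0.58, between −0.48 and 0.95, and 4 were negative. Without animals 36764 and 36789 the median was 0.41 and 7 were negative. Pairs moved both ways, as ENSPEMG00000024212 went from R = 0.64 to −0.22 with ENSPEMG00000000663 and from 0.18 to 0.84 with ENSPEMG00000012994. ENSPEMG00000016978 and ENSPEMG00000012578, of 43 matching exons, had R = 0.95 (rho = 0.94), and ENSPEMG00000012994 and ENSPEMG00000017917, of 9, had R = 0.95 too (rho = 0.96). ENSPEMG00000012994 had R = 0.58 with ENSPEMG00000012578 (43 matching exons, rho = 0.87) and with ENSPEMG00000016978 (41, rho = 0.83). Without animals 36764 and 36789 these were 0.79 and 0.81. ENSPEMG00000011603 and ENSPEMG00000012994, of 42 matching exons, had R = −0.48 (rho = −0.07), and R = −0.01 without animals 36764 and 36789. ENSPEMG00000017917 and ENSPEMG00000000663, the pair of 34, had R = −0.02. Elsewhere, ENSPEMG00000007795 and ENSPEMG00000010563 had R = 0.65, ENSPEMG00000003191 and ENSPEMG00000006363 had R = −0.40, and −0.16 without both animals, and ENSPEMG00000017305 and ENSPEMG00000020869 had R = 0.84.

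Members lay on 20 of the 23 numbered chromosomes. Chromosome 7 held 13, chromosomes 1 and 8 held 12 each and chromosomes 13 and 20 held 7 each. On chromosome 13 they were 2.31% of the genes averaging at least 10 counts, the highest share, and none lay on chromosomes 11, 15 or 19. The plus strand held 53 and the minus strand 47. Only ENSPEMG00000016525 overlapped, by an exon, with an exon annotated on the opposite strand.

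There were 10 members within 100 kb of another member, in 5 pairs. ENSPEMG00000019749 and ENSPEMG00000016638, on opposite strands of chromosome 17 and 858 bases apart, had 52 and 47 exons and R = 0.88 (rho = 0.76). The former ran from 1684 to 3757 CPM and the latter from 1275 to 2296 CPM, both highest in 36764. Their R was 0.81 without animals 36764 and 36789, and 0.66 without 36764 and 36772. ENSPEMG00000016978 and ENSPEMG00000012578, the 54-base pair of R = 0.95, lay 27781 bases apart on chromosome 13 on opposite strands, and their lowest animal was 36789 and their highest 36798. The other 3 pairs had lower R. ENSPEMG00000011883 and ENSPEMG00000023614 (chromosome 21, 93828 bases) had R = 0.63, ENSPEMG00000024920 and ENSPEMG00000018165 (chromosome 13, 10247 bases) had R = 0.55, and 0.17 without animals 36764 and 36789, and ENSPEMG00000017305 and ENSPEMG00000018968 (chromosome 2, 8073 bases) had R = 0.12, and 0.39 without both animals. Without 36789 and 36905, the animals farthest from the former gene's median, it was −0.34.

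The 2 ranges of animal number were compared because no other label divides the animals, and the labels do not say what the numbering stands for. None of the 100 members was called by edgeR's quasi-likelihood test at a Benjamini-Hochberg adjusted p under 0.05, and the smallest adjusted p of a member was 0.986. Over all genes 1 of 13935 was called (0.00718%). At an unadjusted p under 0.05 there were 4 members with edgeR, against 3.21% of all genes, and 8 with DESeq2, against 4.75%, and DESeq2 also called no member and 0.0502% of all genes. Log2 differences of members lay between −1.54 and 0.93 (animals 36905 to 36907 minus the others), 99 of 100 of them within 1. The lowest belonged to ENSPEMG00000009651, which was at 7875 CPM in animal 36746 and at most 1961 CPM in any other animal. In simulated counts with these groups, the test recovered 52 of 100 genes changed 2-fold and 76 of 100 changed 4-fold. It also called 5 unchanged genes. The simulation covered 13935 genes, and recovery of changes in the members alone was not tested.

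Against library size, edgeR called 1 member, ENSPEMG00000024212, which rose by 3.16 log2 units per log2 unit of library size (adjusted p = 0.048), with its lowest level in the smallest library and its highest in the largest. Of all genes 171 were called (1.23%), so in this fit the count of members is near the background. No member was called when any of 8 animals, among them 36789, was left out in turn, 22 were called without 36764 and 1 without 36772. In the 9 fits with 0 or 1 member called, 0% to 1.13% of all genes were called, near the members' share. The share of all genes called without 36764 was 13.1%. DESeq2 called 14 members and 5.53% of all genes, so the members' share was above that of all genes in these fits. All genes here are those averaging at least 10 counts, whereas every member had at least 1237 counts in every animal. More counts make a call easier, and no share was taken for genes of like count. The excess is thus not shown to be particular to the members. Depth and the animal cannot be told apart, as each animal had 1 library.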

How the data were processed

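Ear fibroblasts of 10 male Peromyscus maniculatus were sequenced as RNA in directional paired-end libraries. The authors deposited raw counts of read pairs per gene, the unit used here. The submitters' processing notes name FastQC 0.11.5, Trim Galore 0.4.5, STAR 2.7.2b, SAMtools 1.5 and featureCounts of Subread 1.5.3. Per the file headers, featureCounts ran without a strand option on the Ensembl release 98 annotation of HU_Pman_2.1, whose exon positions and lengths were also deposited. Because strand was not used, reads of overlapping genes on opposite strands cannot be told apart. Totals were 20811334 to 31912526 counts per library, which set the precision of each value. There was 1 library per animal.

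Members were ranked by mean raw CPM. The members, lists and tests were chosen with earlier results of these data known. Genes averaging at least 10 counts (13935) were fitted with edgeR 4.0.16 (TMM, quasi-likelihood test, Benjamini-Hochberg adjustment) in R 4.3.3, with DESeq2 1.42.0 as an alternative. Log2 CPM used a prior count of 2. Other steps used Python 3.11.15 and scipy 1.17.1. Exons overlapping within a gene were merged and read in the order of transcription. Correlations were compared with those of all gene pairs. Both sets of scripts were tested on simulated data. Alternatives were raw scaling, ranking per kb, other count minimums, leaving out each animal, and leaving out animals 36764 and 36789 together. After the data had been seen, 4 were added: the CV without the 54-base group, that group's size under other rankings, and its correlations and the Dixon count without both animals.

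Named genes were the 10 of highest CPM, 5 of highest CPM per kb, 5 most and 5 least variable, 3 most and 3 least correlated pairs, 5 of largest Dixon ratio, ranks 96 to 105, members within 100 kb of each other and the 3 of most exons. Other members are named for their exon lengths or an outlying animal and were chosen after their values were seen. Identifiers were matched to no symbols, so marker and pathway lists were not analysed here, and no sequence is shown.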

Additional observations from a re-analysis of the deposited data

Results flagged for a closer look

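In a group of 10 animals, the gap between the extreme animal and its nearest neighbour is set against the group's range, and a ratio above Dixon's 95% critical value marks the extreme animal, which chance does in about 1 in 20 groups. The share of counts on ranks 1 to 10 was marked by animal 36764, with 11.2% against 7.20% to 9.17% in the others (ratio 0.509). The ranks were set by the values of the same animals, 36764 included. This mark and those of members below are therefore descriptions, to which that chance rate need not apply. High values in 36764 also marked ENSPEMG00000010982 (ratio 0.586), ENSPEMG00000019570 (ratio 0.532), ENSPEMG00000017364 (ratio 0.473, 1016 CPM against a median of 920) and ENSPEMG00000018968 (ratio 0.47, 1238 CPM against a median of 843). A low value in 36764 marked ENSPEMG00000012994 (ratio 0.506). Low values in 36789 marked ENSPEMG00000012578 (ratio 0.535), ENSPEMG00000000128 (ratio 0.474, 487 CPM against a median of 1663) and ENSPEMG00000024212 (ratio 0.47). A high value in 36746 marked ENSPEMG00000009651 (ratio 0.521).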

How the results depend on the processing

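The ranking depended most on length, since 47 of 100 members remained when genes were ranked per kb, and 2 of the 7 genes with 54-base exons did. Members with an outlying animal numbered 9 with TMM scaling (9.72% of all genes), 5 on raw log2 CPM (11.04%) and 3 without animals 36764 and 36789 (5.04%). Members called against library size numbered 1 with edgeR, 14 with DESeq2, 2 without TMM factors, 12 without animals 36764 and 36789, and 0 to 22 when each animal was left out in turn, 22 without 36764. The share of all genes called was 1.23%, 5.53%, 1.69% and 3.98% under the first 4 of these settings. It was 13.1% without 36764 and 0% to 1.13% without each of the other 9 animals. The members' share was near it with edgeR, with or without TMM factors and without each of those 9. In the other settings the members' share was above it, but genes of like count were not set beside the members. The median correlation of member pairs was 0.04 and turned to −0.00305 without TMM factors, where 50.3% of pairs were negative. The median coordination was 0.03 and turned to −0.019 without animal 36764, where 50.6% of pairs were negative, with a range of −0.019 to 0.0304 over animals left out. The cause of these changes was not tested. Among the 21 pairs of the 54-base group, R changed sign in 3 without animals 36764 and 36789. Sign changes also came with other animals left out. Without 36789 and 36798, R of ENSPEMG00000012578 and ENSPEMG00000000663 went from 0.46 to −0.49. Without 36764 and 36798, that of ENSPEMG00000012994 and ENSPEMG00000000663 went from −0.25 to 0.19. The other counts, shares and medians recomputed for all members kept their direction. No paired analysis was possible because the animals form 1 group. The lowest count of any member was 1237, so counting error alone was at most 2.84%. Some members were still called against library size in some fits. With 10 animals, 1 library each, differences between animals and between libraries cannot be told apart.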
